A study of Mus musculus with 6 samples.

Results

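The genes described here are 29 genes of sterol and fatty acid synthesis, chosen by name for the step they carry out, with earlier results of these data known. They fell into 17 enzymes of the sterol branch, 7 enzymes of the fatty acid branch and 5 regulators of the sterol regulatory element-binding proteins (SREBPs). All 29 were among the 23159 genes of the count table, and all 29 were among the 13728 genes that passed the filter on low counts and were tested.

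Chondrocytes that keep a nuclear label for long (label-retaining chondrocytes, LRCs) were compared with chondrocytes that had diluted it (non-LRCs), to ask which transcripts mark slow-cycling cells of the postnatal growth plate. All 6 libraries, 3 of LRCs and 3 of non-LRCs, came from quadruple homozygous Col2-Q mice carrying Col2a1-tTA inserted downstream of Peli2, TRE-H2B-GFP at Col1a1, Col2a1-creER and R26R-tdTomato. The mice were killed at postnatal day 49, after doxycycline from day 21 to day 49, which shuts off new H2B-GFP, and tamoxifen on days 46 and 47, which induces tdTomato. Each of the 3 experiments pooled cells of littermates and gave 1 LRC library, from about 10000 CD45-negative tdTomato+ cells with high H2B-GFP, and 1 non-LRC library, from about 50000 such cells with mid to low H2B-GFP. The cells came from the growth plates of the distal femur and proximal tibia. The groups thus shared every allele and both drugs and differed in the brightness gate and in the number of cells sorted. Effects of the gate and of the cell number cannot be told apart here. Both the label and the tdTomato gate were driven by *Col2a1* promoter sequences, so that both groups were limited to cells in which these sequences had been active.

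Sterol synthesis condenses acetyl-CoA units into mevalonate, builds isoprenoids from it, joins these into squalene, and closes and trims the sterol rings to give cholesterol. Fatty acid synthesis builds saturated chains from malonyl-CoA, which elongases lengthen and stearoyl-CoA desaturases make monounsaturated. Both branches are under the control of SREBPs, membrane-bound transcription factors that the escort protein Scap carries to the Golgi for cleavage and that Insig proteins hold back in the endoplasmic reticulum when sterols are plentiful. Genetic defects of late sterol enzymes, among them those encoded by *EBP*, *NSDHL* and *DHCR7*, disturb skeletal development.

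SREBPs act with the factor NF-Y at promoters, and promoter sequence was therefore set beside the expression values. RefSeq promoter windows on GRCm38.p6, covering 250 bases before to 50 bases after a transcription start, were matched by symbol for 24 of the 29 genes, in 33 windows, and were not used here for *Sqle*, *Fdps*, *Fdft1*, *Scd1* and *Scd2*. Shown are *Hmgcs1*, the only one of these 24 with the sterol regulatory element letters TCACNCCAC in its window, *Fasn* and *Ebp*, which stood on opposite sides of 0 in the comparison, and *Insig1*, the member with the highest level per length. The windows lie at chr13:119690101-119690400 (plus strand), chr11:120824498-120824797 (minus strand), chrX:8193463-8193762 (minus strand) and chr5:28071162-28071461 (plus strand). Capitals mark matches to TCACNCCAC, found once, and to CCAAT, the letters bound by NF-Y, on either strand, where the complement reads ATTGG.
Hmgcs1: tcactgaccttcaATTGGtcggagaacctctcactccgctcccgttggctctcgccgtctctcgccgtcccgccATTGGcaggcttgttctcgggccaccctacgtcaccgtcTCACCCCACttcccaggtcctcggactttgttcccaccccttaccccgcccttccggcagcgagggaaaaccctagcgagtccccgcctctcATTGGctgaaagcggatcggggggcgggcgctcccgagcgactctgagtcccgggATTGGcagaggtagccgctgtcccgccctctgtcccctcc
Fasn: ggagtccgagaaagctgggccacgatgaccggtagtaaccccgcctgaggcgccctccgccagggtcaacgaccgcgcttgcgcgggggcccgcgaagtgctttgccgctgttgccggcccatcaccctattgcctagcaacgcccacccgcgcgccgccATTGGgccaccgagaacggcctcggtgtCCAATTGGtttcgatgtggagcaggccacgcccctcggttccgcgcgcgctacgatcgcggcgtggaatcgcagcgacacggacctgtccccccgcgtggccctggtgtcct
Ebp: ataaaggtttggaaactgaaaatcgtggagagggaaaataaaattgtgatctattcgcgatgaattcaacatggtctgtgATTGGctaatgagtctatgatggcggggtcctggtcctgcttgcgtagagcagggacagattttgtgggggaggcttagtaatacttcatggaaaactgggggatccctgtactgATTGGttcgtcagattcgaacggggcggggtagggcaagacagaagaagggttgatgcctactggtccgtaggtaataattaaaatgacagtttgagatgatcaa
Insig1: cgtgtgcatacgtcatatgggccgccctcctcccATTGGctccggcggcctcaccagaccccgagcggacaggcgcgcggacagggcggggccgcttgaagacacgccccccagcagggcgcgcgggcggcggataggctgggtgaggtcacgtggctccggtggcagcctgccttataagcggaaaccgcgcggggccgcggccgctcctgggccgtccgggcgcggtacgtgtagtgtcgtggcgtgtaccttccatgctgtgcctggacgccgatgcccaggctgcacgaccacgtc

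The match in *Hmgcs1* reads TCACCCCAC. TCACNCCAC was present in 1 of the 33 windows of the members, and in 1.24% of all 32851 windows of the same length. CCAAT was present in 21 of the 33 windows, belonging to 20 of the 24 genes, against 37.4% of all windows. The window of *Hmgcs1* held 4 matches to CCAAT, that of *Fasn* 3, of which a pair overlap, that of *Ebp* 2 and that of *Insig1* 1. CACGTG, an E-box, was in 7 windows (6 genes), against 7.15% of all windows, and GGGCGG, a GC box, in 24 windows (19 genes), against 35.7% of all windows. A match is a run of letters and not a measured binding site, and a window without one says nothing of the factor.

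Total counts lay between 18943789 and 129559872 per library, and the smallest library, LRCs of experiment 2, had 1731 of the tested genes at 0 counts, against 4 to 365 in each of the others. No member was at 0 in any library. The lowest count of a member was 87 (*Tm7sf2* in that library) and the highest 130068 (*Scd2* in non-LRCs of experiment 1). All 8 growth plate chondrocyte markers were detected, and *Col2a1* took 7.003% to 17.4% of counts. With these genes at 0, the LRC library of experiment 2 stood apart from the other 2 LRC libraries, so that values with and without experiment 2 are given for the genes on which a result rests. In bulk RNA, fewer cells of a type and less RNA per cell cannot be told apart.

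The genes spanned a wide range of levels in growth plate chondrocytes (plot of level by gene). Per kilobase of exon, *Insig1* was the highest, with a mean of 332 CPM per kb (counts per 1000000 counts, per kilobase) in LRCs and 361 in non-LRCs. In LRCs *Hmgcs1* followed, with 113 in LRCs and 139.7 in non-LRCs, then *Cyp51* with 104 and 107. *Scd2* had 94.1 CPM per kb in LRCs and 191 in non-LRCs, above every member but *Insig1* in non-LRCs and close to *Idi1* in LRCs. *Tm7sf2*, a sterol reductase, was the lowest with 0.851 in LRCs and 1.05 in non-LRCs, and *Acaca*, which makes malonyl-CoA, had 1.41 and 1.61. Levels were not even within the branch: the mevalonate enzymes *Mvk* and *Mvd* had 2.59 and 3.99 CPM per kb in LRCs, beside the 93.4 of *Idi1*, which acts next.

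**Figure D1:**
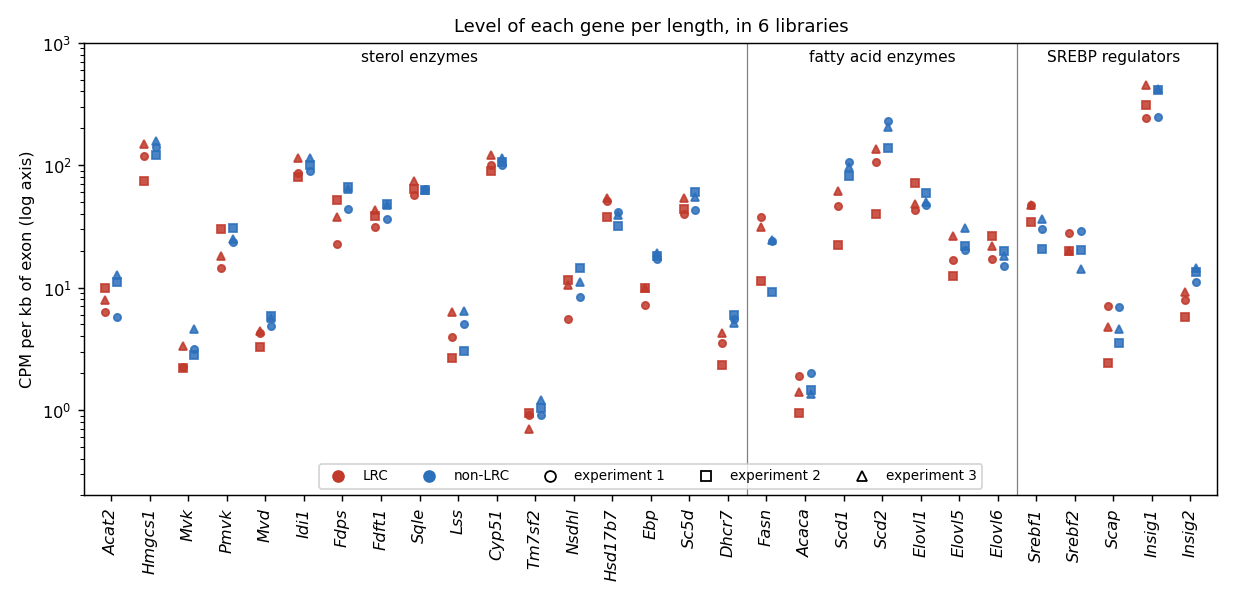
Level of the 29 genes in each of the 6 libraries, as TMM-normalized CPM per kilobase of exon on a log axis (vertical), by gene in pathway order (horizontal). Red symbols are LRCs, blue symbols non-LRCs, and the symbol shape gives the experiment. *Insig1* is highest and *Tm7sf2* lowest, and the LRC and non-LRC symbols of *Mvd*, *Ebp*, *Dhcr7*, *Scd1*, *Scd2* and *Insig2* do not overlap.

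In the paired edgeR fit, 0 of the 29 genes passed an adjusted p of 0.05 in either direction, beside 1.28% of all genes tested. Most of the members nonetheless had lower fitted values in LRCs: 22 were lower and 7 higher, beside 56% and 44% of all genes tested, and their median log2 fold change was -0.23, beside -0.097 over all genes tested. Of the members, 7 (24.1%) had an unadjusted p below 0.05 and were lower in LRCs, beside 9.53% of all genes tested, and 3 (10.3%) were higher, beside 8.89%. The lower ones were *Fdps*, *Ebp*, *Dhcr7*, *Scd1*, *Scd2*, *Elovl5* and *Insig2*, and the higher ones *Hsd17b7*, *Fasn* and *Srebf1*. The difference in log2 CPM was negative in all 3 experiments for 17 members (58.6%), beside 26.1% of all genes, positive in all 3 for 4 (13.8%), beside 20.4%, and of mixed sign for 8. All LRC libraries lay below all non-LRC libraries for 6 members (20.7%), beside 10.3%, and above them for 0, beside 8.41%. The 6 were *Mvd*, *Ebp*, *Dhcr7*, *Scd1*, *Scd2* and *Insig2*.

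The calls depended on the tool. DESeq2 with the same experiment term called *Fdps*, *Ebp*, *Scd1*, *Scd2* and *Insig2* lower (5 members, 17.2%, beside 5.92% of all genes) and *Fasn* and *Srebf1* higher (2 members, 6.90%, beside 5.88%). limma-voom called 4 lower (*Fdps*, *Ebp*, *Scd1* and *Scd2*, beside 4.69% of all genes) and 1 higher (*Srebf1*, beside 5.22%). The same 4 lower genes were called by edgeR when genes needed at least 10 counts in every library (beside 2.97% of genes called lower) or when experiment 2 was left out (beside 2.1%). Without experiment 1, edgeR called 0 members, beside 0.254% of genes in either direction and 0.058% lower, and without experiment 3 it called *Scd1* and *Scd2* lower, beside 0.598% of genes. For 20 of the 29 genes the 95% interval of the paired edgeR fit lay within a 2-fold change either way, and for 9 it did not.

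**Figure D2:**
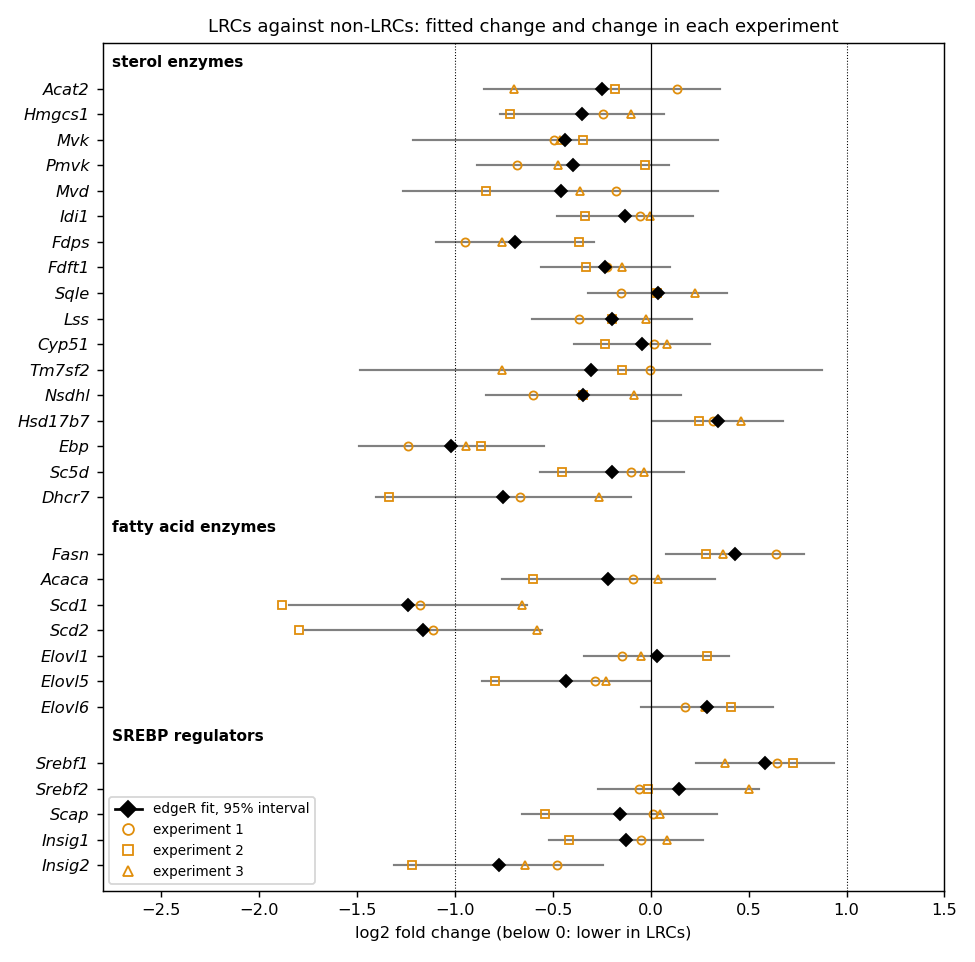
Fitted log2 fold change of LRCs against non-LRCs (horizontal axis, below 0 is lower in LRCs) for each of the 29 genes (vertical axis, by branch). Diamonds and grey lines are the paired edgeR fit with its 95% interval, open symbols the difference in log2 CPM within each experiment, and dotted lines a 2-fold change. *Scd1*, *Scd2* and *Ebp* have the lowest fitted values, and *Srebf1*, *Fasn* and *Hsd17b7* have intervals wholly above 0.

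The sterol branch leaned to lower values in LRCs, without a call in the edgeR fit. Of its 17 enzymes, 15 (88.2%) were lower and 2 higher, beside 56% of all genes lower, and 13 (76.5%) were lower in all 3 experiments, beside 26.1%. The median log2 fold change was -0.31, beside -0.097 over all genes tested. With experiment 2 left out, the median was -0.27, beside -0.018 over all genes of that fit. Within the experiments the median was -0.22, -0.34 and -0.14. The summed level of the 17 genes was 2636 ± 423 CPM in LRCs against 2949.7 ± 241 in non-LRCs (mean ± s.d., n = 3), and the ratio of LRC to non-LRC sums was 0.895, 0.804 and 0.974 in experiments 1, 2 and 3. The sum was thus lower in LRCs of each experiment, while the groups overlapped across experiments.

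The enzymes that make and activate mevalonate had modest fitted differences. *Hmgcs1*, which condenses acetoacetyl-CoA with acetyl-CoA, had 541, 339 and 679.8 CPM in LRCs against 640.2, 557 and 729 in non-LRCs of experiments 1, 2 and 3. It was lower in LRCs of each experiment, but the groups overlapped (log2 fold change -0.35 ± 0.17, SE, edgeR adjusted p = 0.343). *Mvd*, which decarboxylates the mevalonate diphosphate, had 7.96, 6.07 and 8.22 CPM in LRCs against 9.02, 10.9 and 10.5 in non-LRCs. Its groups did not overlap, with a wide error of the fitted change (-0.46 ± 0.33, SE, adjusted p = 0.513). The kinases *Mvk* and *Pmvk* had -0.44 and -0.40, and *Acat2*, the thiolase that supplies acetoacetyl-CoA, had -0.25 with differences of mixed sign.

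Of the isoprenoid and squalene enzymes, the prenyl transferase *Fdps*, which makes farnesyl diphosphate, had the lowest fitted change. Its levels were 94.8, 217 and 159 CPM in LRCs against 183, 280.5 and 269 in non-LRCs. The LRC value was below its partner in each experiment, with log2 differences of -0.95, -0.37 and -0.76, while the groups overlapped across experiments. The fit gave 1.62-fold lower in LRCs (log2 -0.69 ± 0.16, SE, 95% interval -1.10 to -0.29, edgeR adjusted p = 0.107), the DESeq2 adjusted p was 0.0039, and without experiment 2 edgeR gave -0.85 with adjusted p = 0.0334. Without experiment 1 or 3, the edgeR adjusted p was 0.401 or 0.297. *Fdps* shares much of its sequence with other annotated genes: 86.4% of the 50-base windows of its longest coding transcript were also found in transcripts of other genes, chiefly those of Gm43738, which overlaps it on the same strand, so that its counts are uncertain. Its neighbours in the pathway had -0.13 (*Idi1*, the isomerase before it) and -0.23 (*Fdft1*, squalene synthase). *Sqle*, which oxidizes squalene, had 317, 356 and 409 CPM in LRCs against 352.5, 348 and 349.8 in non-LRCs, and a fitted change of 0.035 (95% interval -0.32 to 0.39).

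The late sterol enzymes ranged from the lowest fitted change of the branch, -1.02 in *Ebp*, to the highest, 0.34 in *Hsd17b7*. *Ebp*, the sterol isomerase that shifts a ring double bond, had 16.7, 22.8 and 23.0 CPM in LRCs against 39.3, 41.6 and 44.2 in non-LRCs. Every LRC library was below every non-LRC library, and the differences of -1.24, -0.87 and -0.94 were alike in size across the experiments. The fit gave 2.03-fold lower in LRCs (log2 -1.02 ± 0.19, SE), with an unadjusted p of 0.00188 and an edgeR adjusted p of 0.0718, the smallest of the 29. The DESeq2 adjusted p was 0.000544, and without experiment 2 edgeR gave -1.09 with adjusted p = 0.0288. Without experiment 1 or 3, the edgeR adjusted p was 0.321 or 0.216. None of the 50-base windows of *Ebp* was found in another gene.

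*Dhcr7*, a reductase of a ring double bond, had 20.4, 13.6 and 24.8 CPM in LRCs against 32.4, 34.5 and 29.7 in non-LRCs. The groups did not overlap, and the difference varied from -0.26 in experiment 3 to -1.34 in experiment 2 (log2 fold change -0.75 ± 0.27, SE, edgeR adjusted p = 0.216), and the fit without experiment 2 gave -0.47. *Hsd17b7*, a reductase in the removal of ring methyl groups, lay on the other side, with 261, 192 and 276 CPM in LRCs against 209, 161 and 201 in non-LRCs. It was higher in LRCs of each experiment, by 0.32, 0.25 and 0.46, with overlapping groups (0.34 ± 0.14, SE, adjusted p = 0.259). *Cyp51*, the demethylase that follows ring closure, had nearly the same level in both groups (-0.045, 95% interval -0.39 to 0.30).

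The remaining sterol enzymes had fitted changes of -0.20 (*Lss*, which closes the rings), -0.31 (*Tm7sf2*), -0.34 (*Nsdhl*, a dehydrogenase in demethylation) and -0.20 (*Sc5d*, a desaturase), with adjusted p values from 0.429 to 0.776. Ratios within a library were read for 7 pairs of genes, which were chosen after the values of the genes were known and are a description. The log2 ratio of *Ebp* to *Cyp51* was -4.74, -4.13 and -4.55 in LRCs and -3.49, -3.49 and -3.52 in non-LRCs. The 3 non-LRC values lay close together, and all LRC values stood below them. That of *Fdps* to *Idi1* was -1.67, -0.36 and -1.34 in LRCs and -0.77, -0.33 and -0.59 in non-LRCs, with overlapping groups.

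The fatty acid enzymes differed in direction. The 2 stearoyl-CoA desaturases were lower in LRCs, and the synthase *Fasn* was higher, in each of the 3 experiments. Over the 7 enzymes, 4 (57.1%) were lower and 3 (42.9%) higher, near the 56% and 44% of all genes tested. The median log2 fold change was -0.22 (-0.15, -0.60 and -0.049 within experiments 1, 2 and 3), beside -0.097 over all genes tested. With experiment 2 left out, the median was -0.097, beside -0.018 over all genes of that fit. In all 3 experiments 3 enzymes (42.9%) were lower (*Scd1*, *Scd2* and *Elovl5*), beside 26.1% of all genes, and 2 (28.6%) higher (*Fasn* and *Elovl6*), beside 20.4%.

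*Scd1*, which desaturates palmitoyl- and stearoyl-CoA, had 228, 108 and 299.7 CPM in LRCs against 515, 398 and 474 in non-LRCs. *Scd2*, its close relative, had 582, 219 and 741 CPM in LRCs against 1259, 759 and 1108 in non-LRCs. For both genes every LRC library was below every non-LRC library. *Scd1* was 2.36-fold lower (log2 -1.24 ± 0.25, SE, 95% interval -1.85 to -0.63, edgeR adjusted p = 0.0808) and *Scd2* 2.24-fold lower (-1.16 ± 0.25, SE, adjusted p = 0.0854). DESeq2 gave adjusted p values of 1.43e-05 and 3.36e-05. The difference was largest in experiment 2 (-1.88 for *Scd1* and -1.79 for *Scd2*) and smallest in experiment 3 (-0.66 and -0.58), and without experiment 2 the fit gave -0.92 (adjusted p = 0.0397) and -0.85 (adjusted p = 0.0475). The edgeR adjusted p values were 0.216 and 0.234 without experiment 1, and 0.0076 and 0.0106 without experiment 3.

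The pair kept nearly the same proportion in every library. The log2 ratio of *Scd2* to *Scd1* was 1.35, 1.02 and 1.31 in LRCs and 1.29, 0.93 and 1.23 in non-LRCs, a difference of 0.065, 0.088 and 0.079 within the experiments, with overlapping groups. The genes lie at chr19:44394455-44407879 (*Scd1*, minus strand) and chr19:44293674-44306864 (*Scd2*, plus strand) on GRCm38, and 4.66% and 4.01% of their 50-base windows were found in other genes, among them each other, *Scd3* and *Scd4*.

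*Fasn*, which assembles palmitate, had 409.6, 123 and 343 CPM in LRCs against 263, 101 and 265 in non-LRCs. It was higher in LRCs of each experiment, by 0.64, 0.28 and 0.37, while its level varied more between experiments than between groups. The fit gave 1.35-fold higher in LRCs (log2 0.43 ± 0.14, SE, 95% interval 0.077 to 0.78, edgeR adjusted p = 0.198), the DESeq2 adjusted p was 0.0425, and without experiment 2 edgeR gave 0.51 with adjusted p = 0.109. Its edgeR adjusted p was 0.630 without experiment 1 and 0.456 without experiment 3.

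Ratios of the desaturases to *Fasn* in the same library were chosen after the values of these genes were known, and are a description. The log2 ratio of *Scd1* to *Fasn* was -0.85, -0.19 and -0.19 in LRCs and 0.97, 1.98 and 0.84 in non-LRCs. That of *Scd2* to *Fasn* was 0.51, 0.84 and 1.11 in LRCs and 2.26, 2.91 and 2.06 in non-LRCs. Neither ratio overlapped between the groups, and gene length does not enter the difference between groups. *Scd1* and *Scd2* alone did not overlap either, and *Fasn* was higher in LRCs of each experiment. The separation was thus largely set by the choice of genes.

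**Figure D3:**
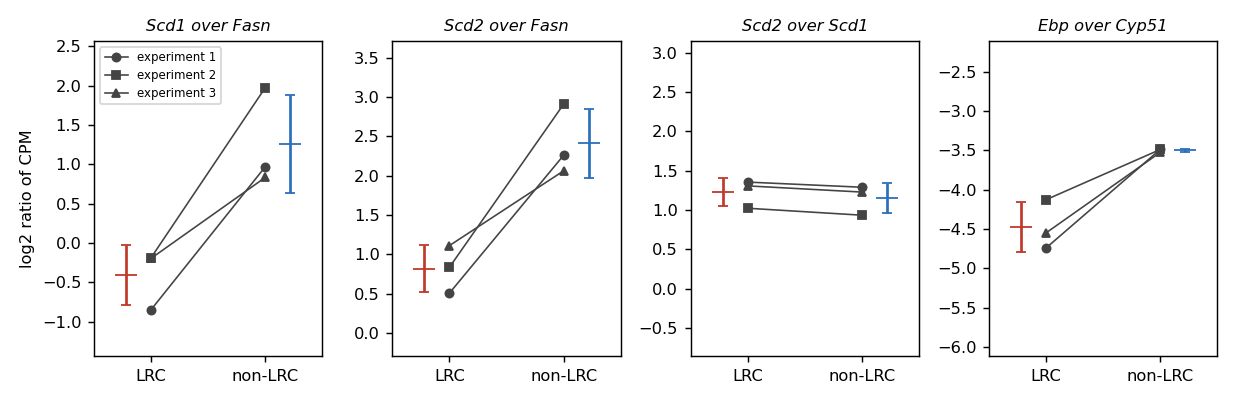
Log2 ratio of CPM between 2 genes of the same library (vertical axis) in LRCs and non-LRCs (horizontal axis), lines joining the libraries of an experiment, with mean ± s.d. (n = 3) beside them. The ratios of *Scd1* and *Scd2* to *Fasn* and of *Ebp* to *Cyp51* do not overlap between the groups, and that of *Scd2* to *Scd1* differs by 0.065 to 0.088. The pairs were chosen after the values of the genes were known.

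*Scd1* and *Scd2* also took a large share of the branch's counts. The summed level of the 7 genes was 1395 ± 464 CPM in LRCs against 2083 ± 383 in non-LRCs (mean ± s.d., n = 3), with LRC to non-LRC ratios of 0.648, 0.532 and 0.794. The desaturase pair made up 52.7%, 37.3% and 58.7% of that sum in LRCs and 74.9%, 70.2% and 70.9% in non-LRCs. Without the pair, the sum was 727, 549 and 731 CPM in LRCs against 595, 491 and 649 in non-LRCs. That remainder was higher in LRCs of each experiment, with overlapping groups, so the lower sum of the branch came from the desaturases.

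The elongases were not alike. *Elovl5*, which lengthens polyunsaturated chains, had 59.1, 44.1 and 92.4 CPM in LRCs against 71.8, 76.4 and 108 in non-LRCs, lower within each experiment with overlapping groups (-0.43 ± 0.18, SE, edgeR adjusted p = 0.268). *Elovl6*, which lengthens palmitate, had 109, 171 and 140.0 CPM in LRCs against 96.6, 128 and 116 in non-LRCs, higher within each experiment (0.29 ± 0.14, SE, adjusted p = 0.340). *Elovl1*, an elongase of very long chains, had 0.031 (95% interval -0.34 to 0.40), and *Acaca*, the carboxylase, had -0.22 with differences of mixed sign. The counts of *Acaca* are uncertain, since 52.6% of its windows were found in the transcript of Gm5182.

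**Figure D4:**
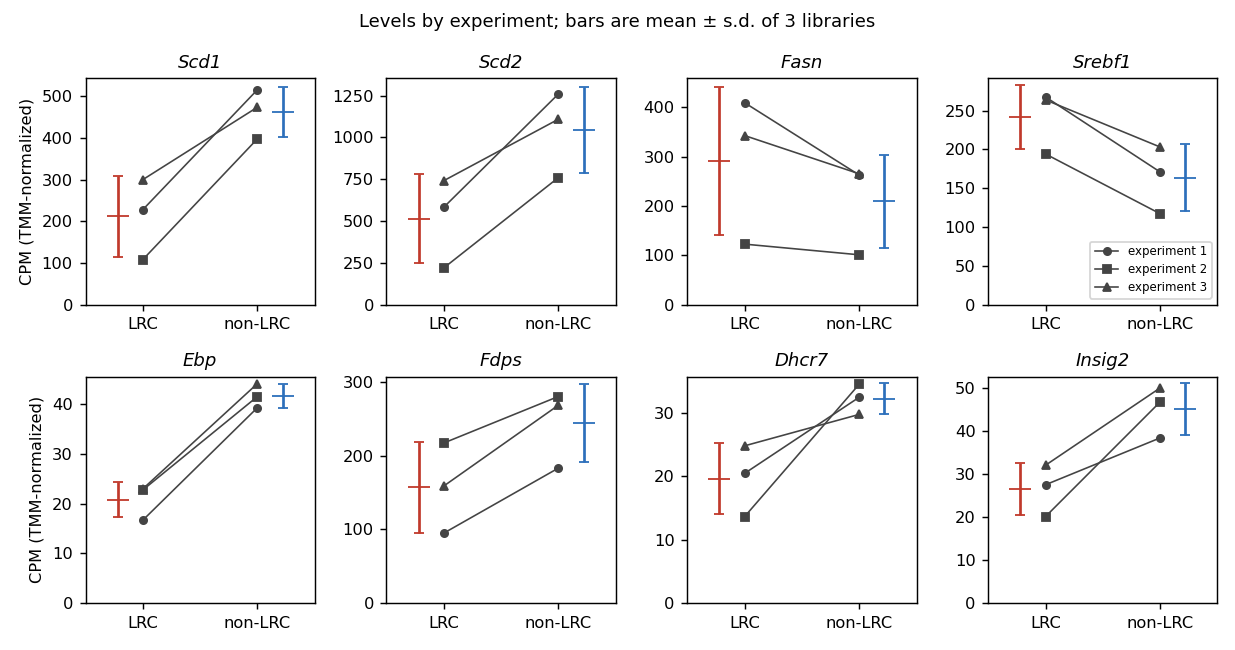
TMM-normalized CPM (vertical axis, from 0) of 8 genes in LRCs and non-LRCs (horizontal axis), lines joining the libraries of an experiment, with mean ± s.d. (n = 3) beside them in red for LRCs and blue for non-LRCs. All lines run upward from LRC to non-LRC for *Scd1*, *Scd2*, *Ebp*, *Fdps*, *Dhcr7* and *Insig2*, and all lines run downward for *Fasn* and *Srebf1*.

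Among the regulators, *Srebf1* was higher and *Insig2* lower in LRCs of each experiment. *Srebf1*, which encodes the SREBP-1 proteins, had 267, 194 and 264 CPM in LRCs against 171, 117 and 203 in non-LRCs. The pairs differed by 0.65, 0.73 and 0.38, while the lowest LRC library lay below the highest non-LRC library. The fit gave 1.5-fold higher (log2 0.58 ± 0.14, SE, 95% interval 0.23 to 0.94, edgeR adjusted p = 0.115), the DESeq2 adjusted p was 0.00461, and without experiment 2 edgeR gave 0.51 with adjusted p = 0.107. Its edgeR adjusted p was 0.410 without experiment 1 and 0.203 without experiment 3. Counts per gene do not separate the SREBP-1a and SREBP-1c transcripts.

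*Insig2*, which retains Scap in the endoplasmic reticulum, had 27.5, 20.1 and 32.0 CPM in LRCs against 38.3, 46.7 and 49.96 in non-LRCs, with no overlap between the groups. It was 1.71-fold lower (log2 -0.78 ± 0.22, SE, edgeR adjusted p = 0.143), the DESeq2 adjusted p was 0.0265, and without experiment 2 edgeR gave -0.56 with adjusted p = 0.106. The edgeR adjusted p of *Insig2* was 0.325 without experiment 1 and 0.349 without experiment 3. Its paralog *Insig1*, far more abundant per length, had 746, 954 and 1385 CPM in LRCs against 771, 1273 and 1306 in non-LRCs. The *Insig1* groups overlapped, and its fitted change was -0.13 (95% interval -0.52 to 0.27). The log2 ratio of *Insig2* to *Insig1* differed by -0.43, -0.80 and -0.73 between LRCs and non-LRCs of experiments 1, 2 and 3, with overlapping groups.

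*Srebf2*, the SREBP that acts mainly on sterol genes, had 200.3, 143 and 143 CPM in LRCs against 209, 144 and 101 in non-LRCs. Its difference was near 0 in experiments 1 and 2 and 0.50 in experiment 3, with a fitted 0.14 (95% interval -0.27 to 0.55). The log2 ratio of *Srebf1* to *Srebf2* was higher in LRCs by 0.71 and 0.74 in experiments 1 and 2 and turned in experiment 3 (-0.12), with overlapping groups. *Scap* had -0.16 with differences of mixed sign. The summed level of the 5 regulators was 1494 ± 317 CPM in LRCs against 1514 ± 241 in non-LRCs (mean ± s.d., n = 3). Of the 5, 60% had lower fitted values in LRCs, near the 56% of all genes tested. Their median log2 fold change was -0.13, near the -0.097 of all genes. With experiment 2 left out, their median was 0.028, beside -0.018 over all genes of that fit.

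For 22 of the 29 genes, the range of the experiment means was wider than the fitted difference between LRCs and non-LRCs. The 7 genes whose difference was wider than that range were *Mvd*, *Tm7sf2*, *Ebp*, *Dhcr7*, *Scd1*, *Scd2* and *Insig2*. Counts of *Acat2* (45.9% of windows found in other genes, among them *Acat3*), *Fdft1* (30.7%, chiefly *Ctsb*, which overlaps it on the opposite strand), *Idi1* (30.5%), *Hmgcs1* (13.6%) and *Scap* (13.1%) also shared sequence with other genes, and 13 members shared none.

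Genes next to these in the pathway were read from 5 lists, in which 0 genes had an edgeR adjusted p below 0.05. Over all genes tested, 8.89% were higher and 9.53% lower at an unadjusted p below 0.05, and DESeq2 called 5.88% higher and 5.92% lower. Of 26 other synthesis enzymes tested, 11 were higher and 15 lower in LRCs (median log2 fold change -0.10), a split and median near those of all genes. Of these, 1 and 7 had an unadjusted p below 0.05, and DESeq2 called 1 higher and 6 lower. *Acly*, which makes cytosolic acetyl-CoA for both branches, had 751 ± 336 CPM in LRCs against 454 ± 188 in non-LRCs and was higher in each experiment (log2 0.71, edgeR adjusted p = 0.0752, DESeq2 adjusted p = 1.04e-05). *Fads2*, the first desaturase of polyunsaturated chains, had 90.4, 19.98 and 117 CPM in LRCs against 253, 138 and 253 in non-LRCs. Its groups did not overlap (-1.78, edgeR adjusted p = 0.0695, DESeq2 adjusted p = 5.31e-07). *Ptpla*, a dehydratase of chain elongation, had -0.99 (adjusted p = 0.0700). *Fads1*, which acts with *Fads2* and was chosen after its values were seen, had -0.89 (adjusted p = 0.163).

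Of 12 genes of SREBP processing and turnover, 7 were higher and 5 lower (median 0.11), 2 and 0 of them at an unadjusted p below 0.05. The ubiquitin ligase *Rnf145*, 1 of these 2, had a log2 fold change of 0.70 (edgeR adjusted p = 0.0937). The SREBP protease *Mbtps2* was not among them and had -1.08 (unadjusted p = 0.0733, edgeR adjusted p = 0.322). Of 15 genes of sterol transport and storage, 5 were higher and 10 lower (median -0.26), 0 and 2 of them at an unadjusted p below 0.05. *Vldlr*, a lipoprotein receptor, had 24.2 ± 0.560 CPM in LRCs against 54.3 ± 14.3 in non-LRCs (-1.13, adjusted p = 0.0726), while the lysosomal sterol carrier *Npc2* had -0.44 and the lipoprotein receptor *Scarb1* -0.28.

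Of 7 genes of liver X receptors and efflux, 3 were higher and 4 lower (median -0.016), 1 and 0 of them at an unadjusted p below 0.05. The sterol exporter *Abcg1* had 7.85 ± 4.18 CPM in LRCs against 2.78 ± 0.960 in non-LRCs (1.39, edgeR adjusted p = 0.177), the receptor *Nr1h2* 0.45 and the acyltransferase *Lpcat3* -0.35. Of 21 genes of fatty acid activation and triglyceride storage, 12 were higher and 9 lower (median 0.057), 3 and 2 of them at an unadjusted p below 0.05. *Lpin2*, a phosphatidate phosphatase, had 0.89 (adjusted p = 0.0612), *Plin2*, a lipid droplet coat protein, 1.03 (adjusted p = 0.108), and the lipase *Lpl* -1.29 (adjusted p = 0.157). DESeq2 called 2 and 0 genes of the SREBP list higher and lower, 0 and 1 of the transport list, 1 and 0 of the efflux list and 3 and 2 of the storage list.

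Since adipocytes make fatty acids abundantly, their markers were read beside the fatty acid genes. Of 8 adipocyte markers, *Adipoq*, *Cfd*, *Retn* and *Lep* had 0 counts in all 6 libraries and *Plin1* and *Cidec* had 0 counts in the LRC libraries, and the summed level was 1.17 to 6.60 CPM in LRCs and 2.88 to 3.98 CPM in non-LRCs. Only 2 adipocyte markers passed the filter, and edgeR called 0 of them (1 lower at an unadjusted p below 0.05, and 1 by DESeq2). Of 9 superficial articular and synovial markers tested, 7 had higher and 2 lower fitted values in LRCs (median log2 fold change 2.05). At an edgeR adjusted p below 0.05, 5 were higher (*Prg4*, *Cilp*, *Cilp2*, *Clu* and *Abi3bp*) and 0 lower. Over all 13728 genes tested, 124 were higher and 52 lower at that threshold (1.28% in either direction). These and the following shares of all genes stand beside every marker list here. Fitted values were lower in LRCs for 56% of genes (median log2 fold change -0.097). At an unadjusted p below 0.05, 8.89% were higher and 9.53% lower. DESeq2 called 5.88% higher and 5.92% lower, and limma-voom 5.22% and 4.69%. The 2 superficial markers with lower fitted values were *Cd55* (-0.15, edgeR adjusted p = 0.812) and *Tppp3* (-0.13, edgeR adjusted p = 0.857). The summed level of the whole list was 1792 to 3927 CPM in LRCs and 294 to 445 CPM in non-LRCs. Hypertrophic chondrocyte markers summed to 826 to 1959.8 CPM in LRCs and 1020.0 to 2971 CPM in non-LRCs, and the fitted values of all 7 were lower in LRCs (median log2 fold change -0.93). Of these 7, edgeR called 1 lower (*Panx3*), 4 were lower at an unadjusted p below 0.05, and DESeq2 called 4 lower and limma-voom 3. Osteoblast markers summed to 819 to 1970.3 CPM in LRCs and 809 to 2101 CPM in non-LRCs, and 6 of 8 had lower fitted values in LRCs (median -0.69). Of these 8, edgeR called 1 higher (*Col1a1*) and 0 lower, 3 were lower at an unadjusted p below 0.05, and DESeq2 and limma-voom each called 3 lower and 1 higher. Skeletal muscle markers summed to 8.13 to 15.8 and 29.8 to 46.03 CPM, with all 5 tested lower in fitted value (median -0.96) and 1 called lower by edgeR, DESeq2 and limma-voom (*Cav3* in edgeR). The osteoblast and hypertrophic lists share *Alpl*, *Spp1* and *Ibsp*. Growth plate chondrocyte markers summed to 77745 to 219057 CPM and 128689 to 224423 CPM, with 7 of 8 lower in fitted value (median -0.50) and 0 called by edgeR (3 lower at an unadjusted p below 0.05, and 3 by DESeq2). Leukocyte and erythroid markers summed to 4.73 to 6.42 and 2.44 to 4.73 CPM, with 0 of 5 called by edgeR or DESeq2, 0 at an unadjusted p below 0.05, and *Ptprc* at 0 counts in 5 of the 6 libraries. The part of these cell types in the values of the sterol and fatty acid genes was not tested.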

How the data were processed

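RNA was measured in 6 libraries, 3 of LRCs and 3 of non-LRCs, grouped by the sample labels, with the experiment number pairing them. Per the paper and the submitters' processing notes, single-end reads were aligned to mm10 (GRCm38) with TopHat2 2.0.13 and Bowtie2 2.2.1, and HTSeq was run by the authors to count reads that mapped without ambiguity. The gene annotation and strand setting are not given in the sources used here, and the labels and the paper name different kits and sequencers. The authors deposited raw counts for 23159 genes, used here, beside normalized and rlog tables, not used here.

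Counts were fitted in R 4.3.3 with edgeR 4.0.16 (filterByExpr, minimum count 10 and minimum total 15; TMM; quasi-likelihood test with prior count 0.125; the experiment as a block, as in the paired model of the paper; Benjamini-Hochberg adjustment over all 13728 genes). Deviations from the group means correlated between the libraries of an experiment across genes (Pearson r = 0.197, 0.288 and 0.336), and the pairing comes from the shared experiment. SE is the log2 fold change divided by the square root of F, and 95% intervals use the t distribution on the total degrees of freedom of the fit and are approximate. CPM are TMM-normalized, and log2 differences use a prior count of 2. Between any pair of libraries the counts differed by more than sampling noise. Counting limits do not cover amplification without molecular identifiers. Exon lengths, coordinates and shared windows come from GENCODE vM21. Scripts were tested on simulated data.

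Alternatives were no block, DESeq2 1.42.0, limma-voom (limma 3.58.1), DESeq2 size factors, no filter, a minimum of 10 counts in every library, a prior count of 2, and each experiment left out. The members and lists were chosen with earlier results of these data known, so no set test was run. All members are accounted for, and from each pathway list the 3 genes with the smallest p were named, except 1 gene that is not reported here. The symbol *Faxdc2* was not matched to a row. p-values measure the spread between experiments that pooled littermates.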

Additional observations from a re-analysis of the deposited data

How the results depend on the processing

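With the replicate block left out, edgeR called 1 gene in all, and 0 members. The number of members called lower was 0 in the paired fit, 5 with DESeq2, 4 with limma-voom, 4 with at least 10 counts in every library, and 0 to 4 with an experiment left out. The number called higher was 2 with DESeq2, 1 with limma-voom and 0 under every other alternative. Genes called among all tested were 176 in the paired fit, 1620 with DESeq2, 1361 with limma-voom, 751 with at least 10 counts in every library, and 35 to 782 with an experiment left out (35 without experiment 1, 782 without experiment 2). The direction of the fitted change was the same in all 10 alternatives for 23 members. It turned when an experiment was left out for *Sqle* (-0.039 to 0.12), *Cyp51* (-0.087 to 0.049), *Elovl1* (-0.097 to 0.12), *Srebf2* (-0.016 to 0.24), *Scap* (-0.25 to 0.028) and *Insig1* (-0.21 to 0.019), all with intervals that span 0. Over the alternatives, the adjusted p of *Ebp* ranged from 0.000544 to 0.321, of *Scd1* from 1.43e-05 to 0.392, of *Scd2* from 3.36e-05 to 0.524, of *Fdps* from 0.0039 to 0.598, of *Fasn* from 0.0425 to 0.814, of *Srebf1* from 0.00461 to 0.578 and of *Insig2* from 0.0265 to 0.465. The cause of these shifts was not tested. Depth did not limit detection of a member, the lowest count being 87, but the errors of *Tm7sf2*, *Mvd* and *Mvk* leave 2-fold changes undecided.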
